A study of Mus musculus with 19 samples.

Results

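Counts on 3 genes, Aph1a, Glyctk and Mybph, stood far higher in mouse epiblast stem cells (EpiSC) than in induced pluripotent stem cells (iPSC), and each of these genes shares exon sequence with a gene on the opposite strand. The set described here holds those 3 genes with their neighbours Car14, D030055H07Rik and Adora1, 6 genes in all, of which 5 are among the 23420 genes with counts. D030055H07Rik was not analysed here. The 3 genes were chosen by their counts in EpiSC against iPSC. Every value below that sets EpiSC against iPSC or against ESC is therefore a description and carries no test. Aph1a had 411 and 114 counts in the EpiSC and 16 in all over 12 iPSC, Glyctk had 76 and 26 against 3, and Mybph had 26 and 30 against 0.

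Aph1a encodes a subunit of gamma-secretase, the membrane protease that cuts Notch receptors and the amyloid precursor protein, and Car14 encodes a membrane-bound carbonic anhydrase, an enzyme that interconverts carbon dioxide and bicarbonate. Glyctk encodes glycerate kinase, which phosphorylates glycerate made in the breakdown of serine and fructose, and D030055H07Rik is annotated as an antisense RNA. Mybph encodes myosin-binding protein H, a protein of skeletal muscle thick filaments, and Adora1 encodes the adenosine A1 receptor, which lowers cyclic AMP. EpiSC are derived from the postimplantation epiblast and are termed primed, whereas embryonic stem cells (ESC) and iPSC in medium with leukaemia inhibitory factor are termed naive.

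Positions were read from GENCODE M21 on GRCm38. Aph1a (ENSMUSG00000015750.15) lies on the plus strand at chr3:95893969-95898288 and Car14 (ENSMUSG00000038526.14) on the minus strand at chr3:95897768-95904691. Their 3' ends overlap over 1 block of 445 bases, which is 12.9% of the exon bases of Aph1a and 17.5% of those of Car14. All 445 bases are untranslated in Aph1a, and 64 of them are coding in Car14. Glyctk (ENSMUSG00000020258.16) lies on the minus strand at chr9:106152857-106158138, within D030055H07Rik (ENSMUSG00000086296.2) on the plus strand at chr9:106148687-106160201. They share 5 blocks of exon, 2203 bases in all, or 52.1% of the exon bases of Glyctk. Mybph (ENSMUSG00000042451.12) lies on the plus strand at chr1:134193448-134201232 and its 3' end runs into that of Adora1 (ENSMUSG00000042429.8) on the minus strand at chr1:134199223-134235431. Here 3 blocks hold 1162 bases, 49.9% of the exon bases of Mybph and 20.09% of those of Adora1, where all of them are untranslated. The map of the 3 loci shows that the overlap was confined to the 3' ends in the Aph1a and Mybph loci and ran from the first to the last exon of Glyctk.

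**Figure D1:**
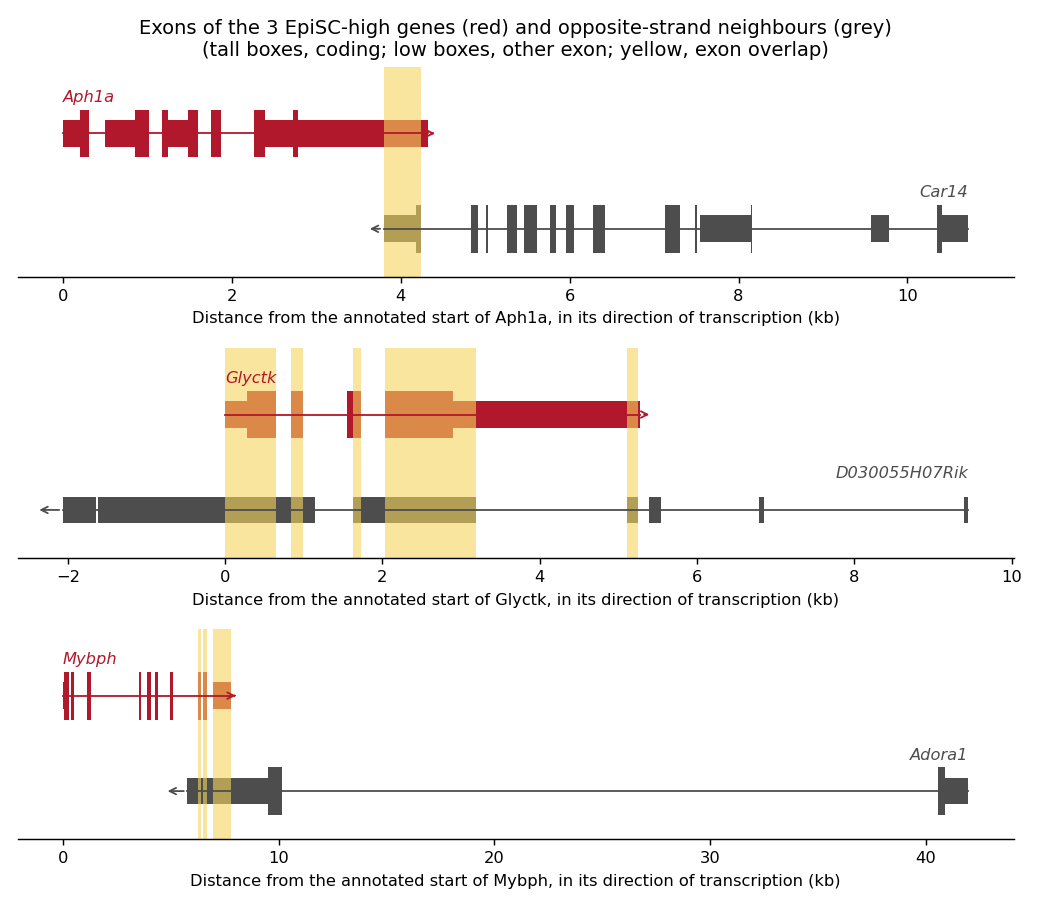
Exons of each EpiSC-high gene (red) and of the gene opposite to it (grey), in kb from the annotated start of the EpiSC-high gene in its own direction of transcription, with arrows for direction and yellow bands for shared exon bases. The bands cover 445 bases in the Aph1a locus, 2203 bases in the Glyctk locus and 1162 bases in the Mybph locus.

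An exon overlap with an opposite-strand gene was carried by 24.4% of the 21777 genes matched to the annotation by symbol, by 47.6% of the 3751 matched genes that passed the filter on low counts over the cell states, and by 76.3% of the 636 matched genes called higher in EpiSC than in iPSC. The library kit keeps the strand of the RNA, but the strand setting of the counting is not given in the sources used here. Whether a read pair counted under a symbol came from that gene or from the gene opposite to it cannot be told apart in these data, and this holds for every value below.

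The promoters of Aph1a, Glyctk and Mybph are shown because these genes were high in the same libraries, and that of Car14 because its gene shares the Aph1a locus. All 6 genes had an entry. Each is RefSeq sequence (GRCm38.p6) from 250 bases before to 50 bases after the annotated start, on the strand of the gene, at chr3:95893671-95893970 for Aph1a, chr3:95904636-95904935 for Car14, chr9:106158089-106158388 for Glyctk and chr1:134193198-134193497 for Mybph. Capitals mark the GC box (GGGCGG), the CCAAT box (CCAAT) and the TATA box (TATAAA), each searched on both strands.
Aph1a: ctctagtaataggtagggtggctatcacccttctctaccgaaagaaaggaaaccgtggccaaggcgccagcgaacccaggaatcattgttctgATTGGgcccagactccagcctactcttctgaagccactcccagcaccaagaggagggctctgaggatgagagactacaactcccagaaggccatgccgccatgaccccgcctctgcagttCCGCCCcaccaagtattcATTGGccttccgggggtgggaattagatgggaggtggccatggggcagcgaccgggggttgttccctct
Car14: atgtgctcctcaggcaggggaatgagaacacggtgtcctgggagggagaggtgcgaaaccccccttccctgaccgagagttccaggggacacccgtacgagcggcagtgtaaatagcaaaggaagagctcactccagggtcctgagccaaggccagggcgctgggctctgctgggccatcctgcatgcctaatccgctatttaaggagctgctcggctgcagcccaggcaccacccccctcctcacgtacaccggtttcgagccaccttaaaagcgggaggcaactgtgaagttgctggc
Glyctk: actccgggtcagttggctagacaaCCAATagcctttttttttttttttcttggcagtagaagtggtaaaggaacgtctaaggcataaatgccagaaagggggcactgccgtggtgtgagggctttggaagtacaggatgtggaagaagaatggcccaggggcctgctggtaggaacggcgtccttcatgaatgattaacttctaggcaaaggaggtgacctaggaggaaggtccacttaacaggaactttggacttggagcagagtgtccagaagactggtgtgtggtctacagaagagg
Mybph: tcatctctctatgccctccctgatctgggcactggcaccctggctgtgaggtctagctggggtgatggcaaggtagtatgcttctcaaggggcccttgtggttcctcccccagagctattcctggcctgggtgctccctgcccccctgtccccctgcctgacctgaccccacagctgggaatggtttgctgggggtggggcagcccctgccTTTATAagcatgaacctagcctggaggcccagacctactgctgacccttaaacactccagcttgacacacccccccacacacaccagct

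The Aph1a promoter held 1 GC box, whose first base lies 37 bases before the start, and 2 CCAAT boxes at 157 and 19 bases before it. All of these read on the opposite strand. Glyctk held 1 CCAAT box at 226 bases, on its own strand. Mybph held 1 TATA box at 39 bases, on the opposite strand, and Car14 held none of the 3 motifs. The Adora1 promoter, not printed, held 3 GC boxes end to end, on the opposite strand. Over the 32851 promoters of the same length, 35.7% held a GC box, 37.4% a CCAAT box and 13.6% a TATA box. CpG dinucleotides numbered 10 in Aph1a, 13 in Car14, 5 in Glyctk, 0 in Mybph and 26 in Adora1, against a median of 7 over all promoters. No motif was common to the 3 EpiSC-high genes, and these letters say nothing of what binds there.

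The study asked whether iPSC made from mouse strains that resist reprogramming stand nearer to ESC or to EpiSC, and sequenced RNA of 17 lines or clones in 19 libraries, with cell states, strains and media compared. The 2 EpiSC were male lines, 1 of NOD/ShiLtJ at passage 38 and 1 of a 129 strain (the FT129/4 line, from 129/Sv) at passage 16, and the 3 ESC were male lines of NOD/ShiLtJ, WSB/EiJ and 129S1/SvImJ at passage 6, grown in serum and LIF with GSK3B and MEK inhibitors. The 14 iPSC, at passages 16 to 31, came from embryonic fibroblasts of pooled littermates by a lentivirus with Oct4, Klf4, Sox2 and Myc, whose factors integrated, were expressed constitutively and were not removed. NOD/ShiLtJ and WSB/EiJ iPSC (2 male and 2 female clones each) were made and grown in 2iS, that is ESC/LIF serum medium with both inhibitors, whereas 129S1/SvImJ iPSC (2 male and 2 female clones) were made and grown in ESC/LIF, and the 2 male 129S1/SvImJ clones were also sequenced after a move to 2iS. Each EpiSC and ESC condition is thus a single line, the EpiSC medium was used for no other state, and cell state cannot be told apart from line, medium and laboratory of origin. Nothing says that replicate clones were cultured separately beyond being separate clones, so p-values measure the spread between these libraries, and in bulk RNA fewer cells of a type and less RNA per cell cannot be told apart.

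Gene counts ranged from 92996 to 567432 among the libraries. They made up 1.15% to 1.74% of uniquely aligned pairs in 17 libraries and 5.59% to 5.62% in the 2 male NOD/ShiLtJ iPSC, which are therefore kept apart below, leaving 12 iPSC. Levels are given as CPM, the share of the gene counts of a library scaled to a fixed total after TMM normalization. TMM is edgeR's correction for the make-up of each library. Where said, levels are given as aligned CPM, scaled in the same way to uniquely aligned pairs. Male NOD/ShiLtJ iPSC clone 3 had the most gene counts, and 1 count there was 1.41 CPM. Male 129S1/SvImJ iPSC clone 17 in ESC/LIF had the fewest, and 3 counts there were 37.6 CPM. Summed over 10 naive markers, the EpiSC had 40.6 and 42.5 CPM and the 12 iPSC 1354 to 2480 CPM. Over 12 primed markers the EpiSC had 400 CPM (NOD/ShiLtJ) and 747 CPM (129) and the 12 iPSC 106 to 288 CPM. The ESC had 192 to 473 CPM and the male NOD/ShiLtJ iPSC 243 and 471 CPM. Both groups thus reached above the NOD/ShiLtJ EpiSC, where Dnmt3b alone had 267 CPM. Nodal went the other way, with 5.80 and 25.5 CPM in the EpiSC and a mean of 44.6 in the 12 iPSC. Fgf5, Cer1, Foxa2 and Sox17 had counts only in the 129 EpiSC and were at 0 in the NOD/ShiLtJ EpiSC. Over 12 genes that most cells express at high level, such as Actb and Gapdh, 17 libraries had 0.00694% to 0.0285% of their aligned pairs and the 2 male NOD/ShiLtJ iPSC 0.191% and 0.205%, and Gapdh had 0 to 6 counts in the 17.

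Aph1a was the most counted gene of the set. It had 2382 CPM in the NOD/ShiLtJ EpiSC (95% counting interval 2157 to 2624) and 968 CPM in the 129 EpiSC (799 to 1163). In the ESC it had 30.3 CPM for NOD/ShiLtJ, 70.4 for WSB/EiJ and 7.47 for 129S1/SvImJ, from 3, 7 and 1 counts. Across the 12 iPSC the lowest value was 0, the median 9.0 and the highest 37.6 CPM, with 4 libraries at 0. The male NOD/ShiLtJ iPSC, with 10 and 9 counts, had 14.1 and 16.2 CPM. The EpiSC thus did not overlap any other library, and each other library held at most 10 counts. The ratio of pooled CPM in EpiSC to that in the 12 iPSC was 177 (exact 95% interval from counting, 108 to 311.9), being 233 for the NOD/ShiLtJ EpiSC alone and 94.7 for the 129 EpiSC alone. Against the ESC it was 54.6 (30.3 to 110). On log2 CPM from edgeR the EpiSC against iPSC difference was 7.25 (SE 0.43), and it stayed at 6.81 when uniquely aligned pairs replaced gene counts as library size.

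Car14, the neighbour of Aph1a, was counted in every library. It had 36 counts in each EpiSC, which is 209 CPM (146 to 289) in NOD/ShiLtJ and 306 CPM (214 to 423) in 129. The ESC had 60.7 CPM for NOD/ShiLtJ, 90.5 for WSB/EiJ and 59.7 for 129S1/SvImJ. The 12 iPSC ran from 37.6 through a median of 59.2 to 128 CPM. Both EpiSC thus lay above every other library for Car14 as well, by a far smaller ratio than for Aph1a: pooled CPM was 3.21 times that of the 12 iPSC (2.36 to 4.33) and 3.58 times that of the ESC (2.21 to 6.01). In aligned CPM the gap was smaller, the EpiSC having 2.21 and 2.42 and the highest of the 12 iPSC 1.81.

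**Figure D2:**
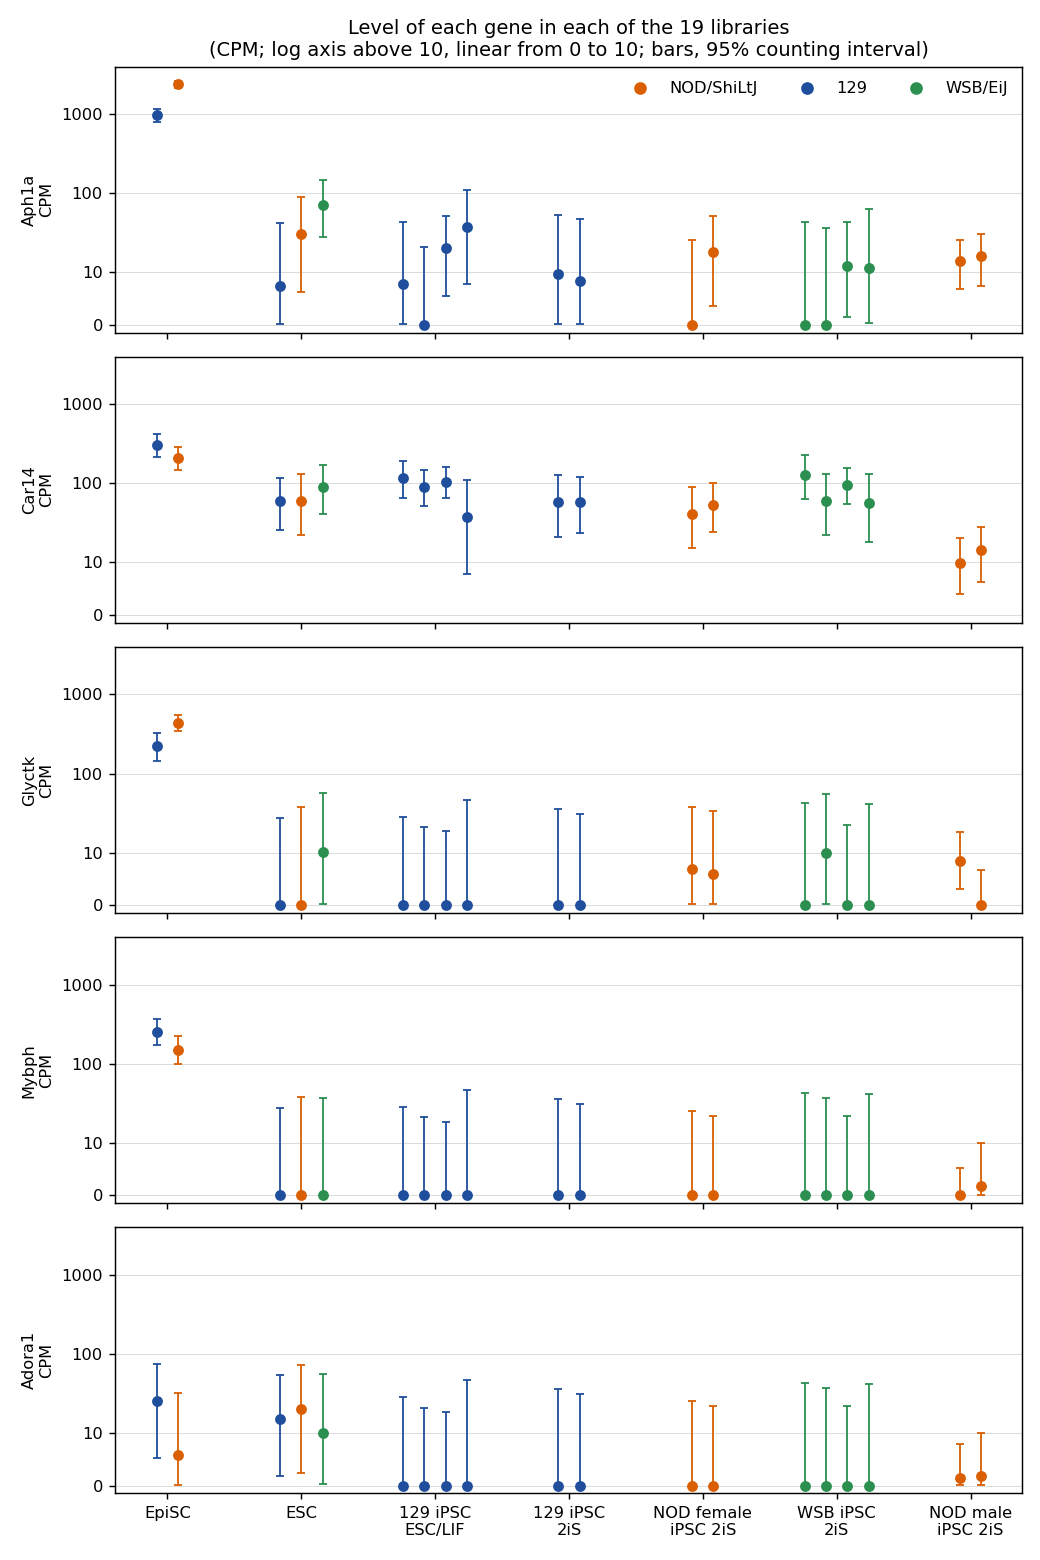
CPM of the 5 genes with counts in each of the 19 libraries, by cell state, strain and medium, on an axis that is linear from 0 to 10 and logarithmic above, with 95% counting intervals as bars. Aph1a, Glyctk and Mybph lie between 151 and 2382 CPM in the EpiSC and reach at most 70.4 CPM elsewhere, Car14 is present in all libraries, and Adora1 reaches at most 25.5 CPM.

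The split of counts between the genes of this locus is given as a description. Aph1a was chosen for its counts in EpiSC, so a high share there follows from that choice. Of the counts on Aph1a and Car14 together, Aph1a held 91.9% in the NOD/ShiLtJ EpiSC (95% Wilson interval 89.1% to 94.1%, of 447) and 76.0% in the 129 EpiSC (68.6% to 82.1%, of 150). It held 32.4% over the 3 ESC (19.132% to 49.2%, of 34) and 11.7% over the 12 iPSC (7.32% to 18.1%, of 137). The single ESC had 33.3% (3 of 9) for NOD/ShiLtJ, 43.75% (7 of 16) for WSB/EiJ and 11.1% (1 of 9) for 129S1/SvImJ. All of these lay within the range of single iPSC. The male NOD/ShiLtJ iPSC, with 55.9% (39.5% to 71.1%, of 34), lay between the other iPSC and the EpiSC. Single libraries of the 12 iPSC held few counts and ran from 0% to 50%, the highest being 3 of 6 counts in male 129S1/SvImJ clone 17 in ESC/LIF. Intervals and floors cover counting error only.

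**Figure D3:**
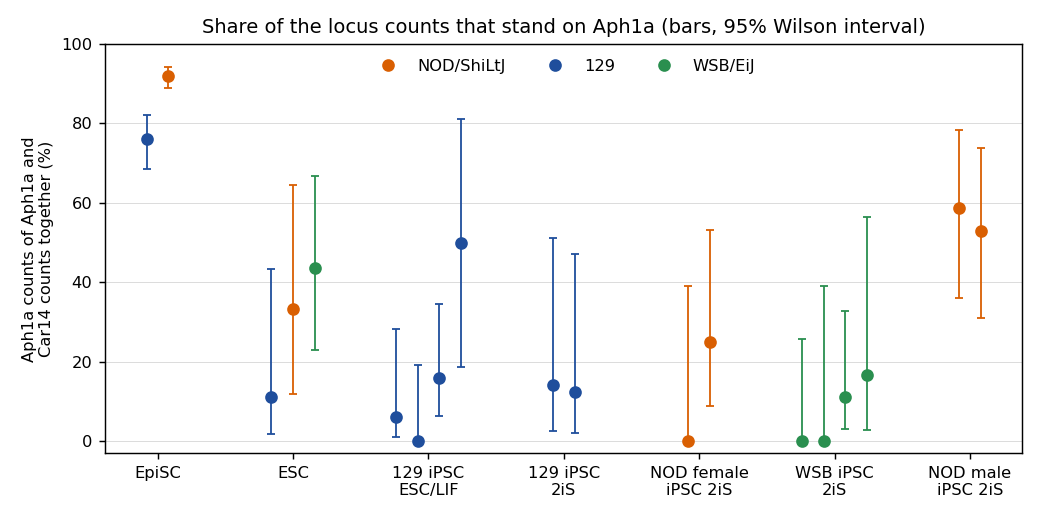
Percent of the Aph1a and Car14 counts of a library that stand on Aph1a, by cell state, strain and medium, with 95% Wilson intervals as bars. The EpiSC, at 91.9% and 76.0%, lie above all other libraries, of which the highest is a male NOD/ShiLtJ iPSC at 58.8%.

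Glyctk was close to absent outside EpiSC. It had 440 CPM in the NOD/ShiLtJ EpiSC (347 to 551) and 221 CPM in the 129 EpiSC (144 to 324). The WSB/EiJ ESC held 1 count (10.1 CPM) and the other ESC none. Of the 12 iPSC, 9 were at 0, and the remaining 3 counts were 1 each in both female NOD/ShiLtJ clones and in WSB/EiJ female clone 28, at most 9.98 CPM. Among the male NOD/ShiLtJ iPSC, clone 3 held 6 counts (8.43 CPM) and clone 35 none. The groups did not overlap, and pooled CPM in EpiSC was 183 times that in the 12 iPSC with a counting interval from 61.0 to 904, wide because of the 3 counts in the denominator. The EpiSC against iPSC difference was 6.86 on the log2 scale (SE 0.54). The gene opposite to it was not analysed here, so no balance between them can be given, and the exon overlap also takes in the hairpin of Mir135a-1.

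Mybph was at 0 in 16 of the 17 libraries other than EpiSC. The NOD/ShiLtJ EpiSC had 151 CPM (98.4 to 221) and the 129 EpiSC 255 CPM (172 to 364), from 26 and 30 counts. All 3 ESC and all 12 iPSC were at 0, and male NOD/ShiLtJ iPSC clone 35 held 1 count. With 3 counts over all 12 iPSC as the floor, 1.92 CPM, the mean EpiSC level was at least 106-fold higher, and with 3 counts over the ESC as the floor it was at least 22.5-fold higher. Mybph is best known from skeletal muscle. Over 10 muscle markers the EpiSC summed to 180 and 195 CPM and the 12 iPSC to between 57.9 and 386 CPM. Most of it in the EpiSC came from Ttn (168 and 161 CPM), which also has an exon overlap on the opposite strand. Myod1, Myog, Myl1, Tnnt2 and Tnni1 were at 0 in both EpiSC, where Gapdh itself had only 4 and 3 counts. Whether muscle-like cells had a part in the Mybph counts was not tested.

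Adora1, the neighbour of Mybph, was scarcely counted. It had 1 count in the NOD/ShiLtJ EpiSC and 3 in the 129 EpiSC (5.80 and 25.5 CPM). The ESC held 2, 1 and 2 counts for NOD/ShiLtJ, WSB/EiJ and 129S1/SvImJ, the male NOD/ShiLtJ iPSC 1 each, and the 12 iPSC 0. Pooled CPM in EpiSC over that in ESC was 0.916 (0.182 to 4.25), so no difference was detectable at this depth. Mybph held 26 of 27 counts on this pair in the NOD/ShiLtJ EpiSC and 30 of 33 in the 129 EpiSC, 93.3% of both together (84.1% to 97.4%), and 0 of 5 in the ESC (0% to 43.4%). The high share in EpiSC follows here too from the choice of Mybph by its counts there.

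Levels of different genes were set side by side per kb of exon. In the NOD/ShiLtJ EpiSC, Aph1a had 690 CPM per kb (625 to 761), Glyctk 104 (82.1 to 130), Car14 82.0 (57.5 to 114), Mybph 64.7 (42.3 to 94.8) and Adora1 1.00 (0.0254 to 5.58). In the 129 EpiSC the order was Aph1a with 281 (232 to 337), Car14 with 120 (84.2 to 166), Mybph with 109 (73.8 to 156), Glyctk with 52.2 (34.1 to 76.5) and Adora1 with 4.40 (0.908 to 12.9). Aph1a stood first and Adora1 last in both lines beyond the counting intervals, while the intervals of Glyctk, Car14 and Mybph overlapped those of their neighbours in the order in both lines.

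The EpiSC lines also differed from each other in Aph1a and Glyctk, both higher in NOD/ShiLtJ. Aph1a CPM in NOD/ShiLtJ was 2.46 times that in 129 (exact 95% interval 1.99 to 3.05) and Glyctk 1.99 times (1.26 to 3.24). Mybph was 0.591 times (0.336 to 1.03), Car14 0.682 times (0.418 to 1.11) and Adora1 0.227 times (0.00433 to 2.83), all with intervals that include 1. Scaled to uniquely aligned pairs the ratios were 3.28 for Aph1a, 2.66 for Glyctk, 0.790 for Mybph and 0.911 for Car14. With 1 library per line these intervals compare the libraries, and strain, passage and line cannot be told apart.

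Of the 5 genes with counts, 4 passed the filter on low counts over the cell states (not Adora1), 3 of them through the EpiSC, where they are high. In edgeR all 4 were past an adjusted p of 0.05 for EpiSC against iPSC, beside 28.3% of the 3986 genes tested in either direction, and in DESeq2 3 of 4 were, Mybph missing it with a log2 difference of 7.14 (SE 4.59). The members were chosen on that contrast and nothing is read from the count.

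ESC against iPSC was tested in the same fit. It shares the 12 iPSC with the contrast that chose the genes, and not the ESC. Among these 12 libraries each male 129S1/SvImJ clone appears once per medium, and the fit treated its libraries as independent. In edgeR's quasi-likelihood test 0 of the 4 genes passed (6.22% of all genes tested did), with 1 of 4 at an unadjusted p under 0.05, and DESeq2 gave the same 0 and 1. Nothing is read from that count, since Aph1a, Glyctk and Mybph entered the fit through the EpiSC and had 11, 1 and 0 counts over the ESC and 16, 3 and 0 over the 12 iPSC. Aph1a differed by 1.64 on the log2 scale (SE 0.72, adjusted p = 0.207 in edgeR and 0.218 in DESeq2), higher in the WSB/EiJ and NOD/ShiLtJ ESC than in the median iPSC and lower in the 129S1/SvImJ ESC. Leaving out 1 ESC at a time gave 0.75 to 2.20, the lowest without the WSB/EiJ line. Car14 differed by -0.13 (SE 0.36, adjusted p = 0.883 in edgeR) and Glyctk, with 1 count in ESC, by 0.47 (SE 1.18, adjusted p = 0.869 in edgeR), while Mybph was at 0 in both groups. Markers of fibroblasts, which the study used as feeder cells, were highest in the ESC as a sum. Over 10 of them the ESC summed to 546 to 993 CPM, the EpiSC to 46.4 and 187 and the 12 iPSC to 0 to 93.2. Col1a1, the most counted of them, had 32 to 64 counts in each ESC. Lum and Dcn went the other way, with 1 and 0 counts over the ESC and 13 and 2 over the 12 iPSC. The iPSC were depleted of fibroblasts before sequencing. The part of such cells in the Aph1a and Car14 levels was not tested.

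Within iPSC only Car14 passed the filter, so it alone could be tested between media and strains. In the male 129S1/SvImJ clones it had 37.6 and 105 CPM in ESC/LIF and 57.9 and 58.5 CPM in 2iS, a log2 difference of -0.52 for 2iS (SE 0.56, adjusted p = 0.805 in edgeR), beside 2.54% of genes called. The 2iS values lay between the ESC/LIF values, and without clone 1 in ESC/LIF the difference was 0.58. Between females in 2iS it had 59.9 and 128 CPM in WSB/EiJ and 41.1 and 53.5 in NOD/ShiLtJ, higher in both WSB/EiJ clones by 0.94 on the log2 scale (SE 0.57, adjusted p = 0.504 in edgeR, 2.58% of genes called). Between males in 2iS, WSB/EiJ had 56.5 and 95.6 CPM against the 57.9 and 58.5 of 129S1/SvImJ, a difference of 0.47 (SE 0.57, adjusted p = 0.773 in edgeR, 3.48% of genes called), which was -0.023 without WSB/EiJ clone 12. None of these differences passed the threshold on adjusted p. The ranges of the clones overlapped between the media and between the males, but not between the females.

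The male NOD/ShiLtJ iPSC had the lowest Car14 of all libraries, 9.84 and 14.4 CPM, and did not overlap the 8 other iPSC in 2iS, which had 41.1 to 128 CPM. The difference was -2.46 on the log2 scale (SE 0.43, adjusted p = 1.36e-05 in edgeR, 27.6% of genes called lower). The call was lost on the other scale: with uniquely aligned pairs as library size the difference was -0.12 (adjusted p = 0.828 in edgeR), and the clones, at 0.693 and 1.04 aligned CPM, lay among the other iPSC. The median of all genes tested moved from 0.21 to 2.59 between these scales, and relative to that median Car14 stood at -2.66 and -2.71. The plot of Car14 on both scales shows the same libraries apart from the rest on the left and among them on the right. These clones are the libraries with more than 5% of aligned pairs on genes, so a library difference and the strain and sex cannot be told apart. Aph1a, with 10 and 9 counts, had 0.990 and 1.17 aligned CPM there, above the 0.465 of the highest of the 12 other iPSC, and 14.1 and 16.2 CPM, within their range.

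**Figure D4:**
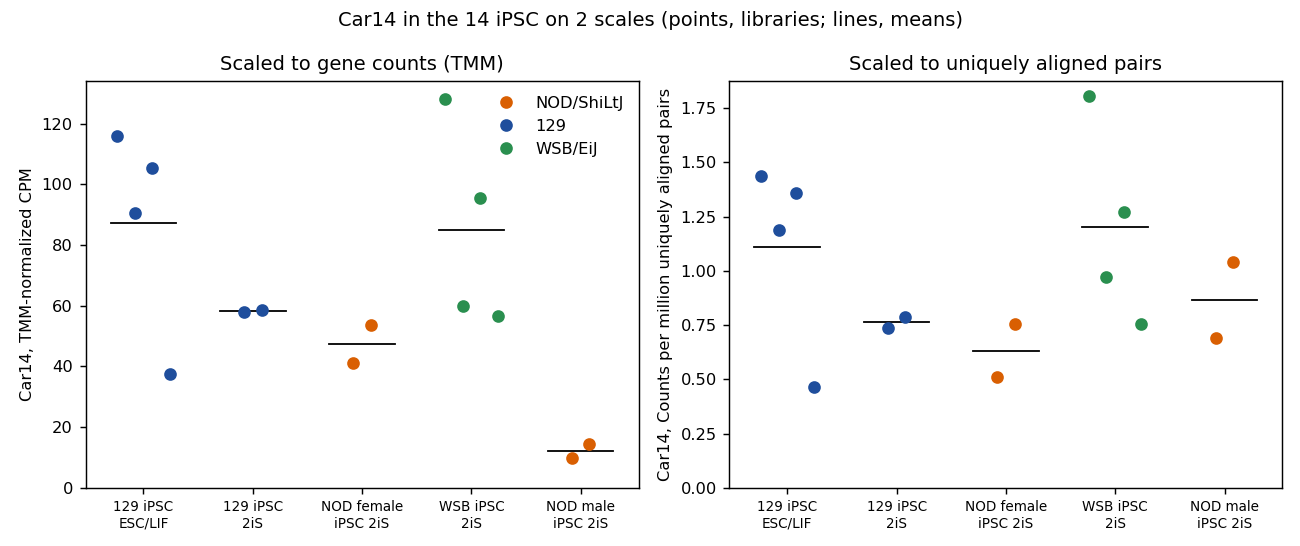
Car14 in the 14 iPSC as TMM-normalized CPM (left) and as aligned CPM (right), by strain and medium, with points for libraries and lines for means. The male NOD/ShiLtJ clones, at 9.84 and 14.4 CPM, are below all others on the left and within the range of the others on the right.

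By condition, Car14 CPM ran in the order 129 EpiSC (306), NOD/ShiLtJ EpiSC (209), female 129S1/SvImJ iPSC in ESC/LIF (103 ± 17.97, SD, n = 2), female WSB/EiJ iPSC (94.0 ± 48.2, SD, n = 2), WSB/EiJ ESC (90.5), male WSB/EiJ iPSC (76.1 ± 27.6, SD, n = 2), male 129S1/SvImJ iPSC in ESC/LIF (71.4 ± 47.9, SD, n = 2), NOD/ShiLtJ ESC (60.7), 129S1/SvImJ ESC (59.7), male 129S1/SvImJ iPSC in 2iS (58.2 ± 0.414, SD, n = 2), female NOD/ShiLtJ iPSC (47.3 ± 8.74, SD, n = 2) and male NOD/ShiLtJ iPSC (12.1 ± 3.23, SD, n = 2). From the female 129S1/SvImJ iPSC down to the NOD/ShiLtJ ESC, each step was smaller than the SD of an iPSC condition beside it. The ESC of NOD/ShiLtJ and 129S1/SvImJ, single libraries of 6 and 8 counts, cannot be ordered. The steps around the male 129S1/SvImJ iPSC in 2iS exceeded their small SD, which rests on 2 clones, and were not tested.

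The relatives of the 5 genes were taken from lists of the same pathway or family. Of 7 gamma-secretase genes, Aph1a was the only one to pass the filter over the cell states. Nicastrin (Ncstn), the subunit that receives substrates, had 46.4 and 93.4 CPM in the EpiSC and 38.4 CPM in the iPSC. Aph1b, the paralog of Aph1a, had 3 counts in the NOD/ShiLtJ EpiSC and 0 in the 129 EpiSC. Neither thus stood at a level like that of Aph1a, whose mean over the EpiSC was 1675 CPM ± 1000 (SD, n = 2).

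Of 16 carbonic anhydrases, Car14 and Car9 passed the filter. Car9, a membrane-bound member induced by low oxygen, had 78 and 136 counts in the EpiSC (452 and 1155 CPM), 5 to 19 counts in the ESC (mean 95.8 CPM) and 0 to 3 counts in the 12 iPSC (mean 7.77 CPM). It was higher in ESC than in iPSC by 3.55 on the log2 scale (SE 0.62, adjusted p = 0.000659 in edgeR), the only one of the pathway and family genes past the threshold in that comparison. Car9 also has an exon overlap on the opposite strand. Car2, a cytosolic member, had 4 and 22 counts in the EpiSC, and 7 of the 16 were at 0 in both EpiSC.

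Of the 9 genes held from a list of 10 for glycerate and serine breakdown, Glyctk and Hyi passed the filter over the cell states. Hyi, hydroxypyruvate isomerase, had 46.4 and 102 CPM in the EpiSC and 53.0 CPM in the 12 iPSC. Grhpr, the reductase that makes the glycerate that Glyctk phosphorylates, had 0 counts in both EpiSC and 26 over the 12 iPSC, and ketohexokinase (Khk) had 3 and 7 counts in the EpiSC. Of 5 myosin-binding proteins only Mybph passed, and Mybpc2, the fast skeletal form, had 7 and 2 counts in the EpiSC against 14 over the ESC. Of 10 genes of adenosine signalling, the nucleoside transporter Slc29a1 passed, with 11.6 and 42.5 CPM in the EpiSC and 56.0 CPM in the 12 iPSC, and Adora2a and Adora3 were at 0 in all 19 libraries. In the male NOD/ShiLtJ iPSC against the other iPSC in 2iS, Hyi was lower by -3.51 (SE 0.58, adjusted p = 6.76e-06 in edgeR) and Slc29a1 higher by 0.83 (SE 0.30, adjusted p = 0.0188 in edgeR) on the log2 scale, beside 56.2% of all genes called. Both values are with TMM normalization only. The median of all genes tested moved from 0.21 to 2.59 with uniquely aligned pairs as library size, and values on that scale are not given for Hyi and Slc29a1.

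The genes whose pattern was most like that of the 3 EpiSC-high genes were ranked by Pearson correlation of log2 CPM over the 19 libraries among 4641 genes, as a description, since all points share library and depth. Aph1a, Glyctk and Mybph were chosen for high counts in the same EpiSC, so their ranks beside each other follow from that choice. For Aph1a they were Pgr (0.93), the progesterone receptor, Mybph (0.91), Glyctk (0.91), the transcription factor Sox4 (0.90) and Gm9767 (0.89). For Glyctk they were Larp7 (0.96), which binds the 7SK RNA, Pgr (0.96), Mybph (0.95), Gm9767 (0.91) and Aph1a (0.91). For Mybph they were Pgr (0.97), Larp7 (0.95), Glyctk (0.95), Gm9767 (0.95) and 1700058G18Rik (0.93). Car14 correlated with Aph1a at 0.55, with Glyctk at 0.57 and with Mybph at 0.64.

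The likeness rested on the 2 EpiSC. Without them, over the other 17 libraries, Aph1a correlated with Pgr at 0.33 and with Glyctk at 0.08, and Mybph with Glyctk at -0.16, the highest values being 0.58 for Sox4 with Aph1a and 0.57 for Larp7 with Glyctk. Pgr had 18 and 13 counts in the EpiSC and 2 in all elsewhere. Larp7 reached 12971 and 15510 CPM in the EpiSC and 208 CPM on average in the 12 iPSC, and the annotation places 5 miRNA hairpins (Mir302a to Mir302d and Mir367) inside it on the opposite strand. Sox4 and Gm9767 have exons that overlap a gene on the opposite strand, Gm26735 and Tmem200a, and Pgr and Larp7 have no such exon overlap. The plot of the most alike genes shows both EpiSC set off from the 17 other libraries in each of them, and Car14 and Adora1 much less so.

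**Figure D5:**
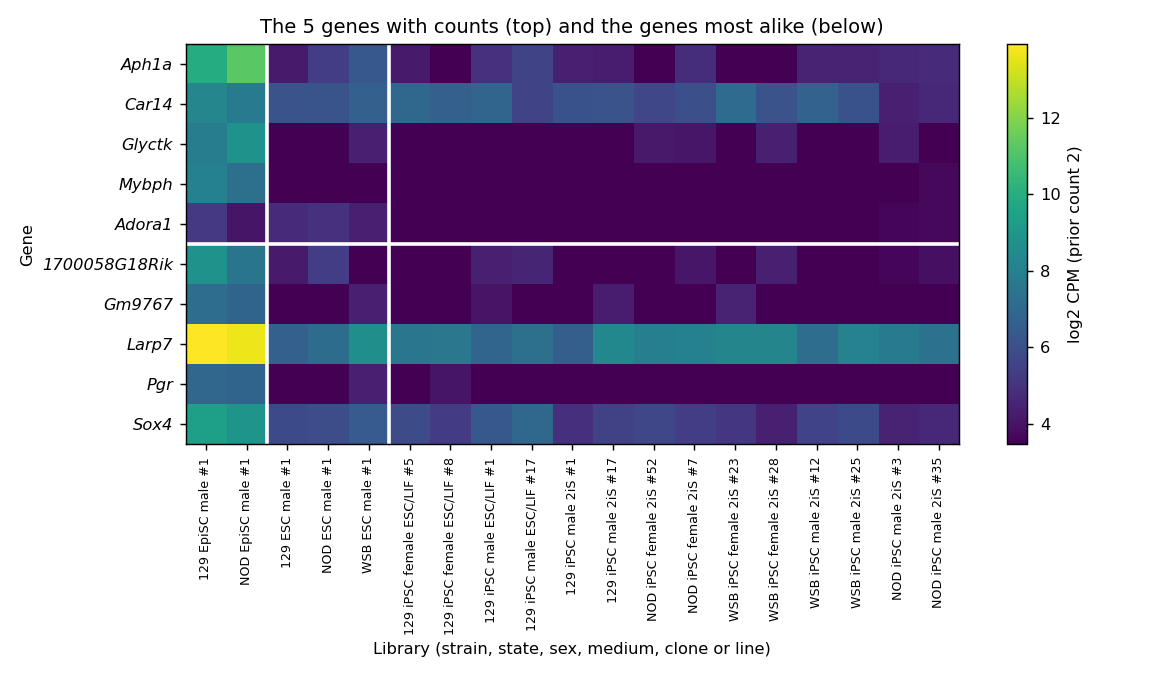
Log2 CPM (prior count of 2) of the 5 genes with counts (above the line) and of the genes most like them (below) in each of the 19 libraries, with EpiSC at the left, then ESC, then iPSC. Larp7 is brightest, at 12971 and 15510 CPM in the EpiSC, and Pgr and Gm9767 are low in all libraries but the EpiSC.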

How the data were processed

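Raw counts of read pairs per gene in 19 libraries were used as deposited. Per the study's methods and the labels, the authors trimmed the read pairs of TruSeq Stranded libraries with Trimmomatic, aligned them to GRCm38 with TopHat2 2.1.1 and made the counts with HTSeq in intersection-nonempty mode. The HTSeq version, its annotation and its strand setting are not given in the sources used here. Pairs on no gene, 94.4% to 98.9% of the uniquely aligned pairs, stayed out of library sizes and tests.

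Libraries were grouped by title, since source names and characteristics name another condition in all 19. The members and gene lists were chosen with earlier results of these data known. Genes named are the 6 members, the 5 most alike genes of each EpiSC-high gene, and members of the lists past the threshold or with the most counts. Tests used edgeR 4.0.16 in R 4.3.3 (TMM, filterByExpr, quasi-likelihood, Benjamini-Hochberg adjusted p under 0.05), in a fit of the 3 cell states without male NOD/ShiLtJ iPSC and a fit of the 14 iPSC in 7 groups, and were tested on simulated data. Shares have Wilson and ratios exact binomial 95% intervals (scipy 1.17.1). Alternatives were DESeq2 1.42.0, its size factors, uniquely aligned pairs as library size, no filter, strain as a covariate, the clone as a replicate block, and libraries left out in turn. No pair of libraries was identical. Some genes of the lists are not reported here. Male 129S1/SvImJ clones 1 and 17 are the same clones in both media, so the clone pairs these samples, and over 4641 genes the difference between the clones in 2iS correlated with that in ESC/LIF at 0.05.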

Additional observations from a re-analysis of the deposited data

Results flagged for a closer look

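In 10 sets of 4 iPSC libraries of 1 strain, taken over the 5 genes with counts, a library stood apart from the other 3 in 2 cases. Glyctk was 9.98 CPM in WSB/EiJ female clone 28, from 1 count, and 0 in the other WSB/EiJ iPSC. Mybph was 1.80 CPM in NOD/ShiLtJ male clone 35, from 1 count, and 0 in the other NOD/ShiLtJ iPSC. Chance flags about 1 in 20 groups of continuous values, but 1 count beside 3 libraries at 0 is always set apart in this way, and neither value exceeds 3 counts.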

How the results depend on the processing

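Without the filter on low counts, 1874 genes passed the threshold for EpiSC against iPSC (28.3% of 3986 with it) and 600 for ESC against iPSC (248 with it). With DESeq2, 113 for 2iS against ESC/LIF became 48, 2504 for male NOD/ShiLtJ iPSC became 1420, 115 for WSB/EiJ against NOD/ShiLtJ females became 44 and 155 for WSB/EiJ against 129S1/SvImJ males became 66. Leaving out 1 library at a time gave 585 to 944 for EpiSC against iPSC (585 without the 129 EpiSC), 88 to 156 for ESC against iPSC (88 without the NOD/ShiLtJ ESC), 53 to 73 for the media, 2011 to 2746 for male NOD/ShiLtJ iPSC, 58 to 117 for the females and 46 to 101 for the males (46 without WSB/EiJ clone 12). With the clone as a replicate block in the 129S1/SvImJ males alone, 102 genes passed, and Car14 did not pass the filter on low counts there. The cause of these shifts was not tested, beyond the smaller number of samples or the larger number of genes tested.

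The ratio of mean Car14 CPM in EpiSC to that in the 12 iPSC fell from 3.43 to 2.31 with uniquely aligned pairs as library size. The Aph1a share of its locus in EpiSC was 76.0% to 91.9% and the Mybph share 90.9% to 96.3% with either EpiSC left out. Among the comparisons given above that were tested, the log2 difference of a member changed sign in 3 cases, none of them past the threshold: Glyctk in ESC against iPSC ran from -1.59 without the WSB/EiJ ESC, which holds its only ESC count, to 1.05, Car14 in 2iS against ESC/LIF from -0.90 to 0.58, the latter without clone 1 in ESC/LIF, and Car14 in WSB/EiJ against 129S1/SvImJ males from -0.023 without WSB/EiJ clone 12 to 0.74. Without the filter, Adora1 in ESC against iPSC, 5 counts against 0, was 4.06 on the log2 scale (adjusted p = 0.00556 in edgeR), and DESeq2 gave it no adjusted p. Calls of a member were lost for Car14 in male NOD/ShiLtJ iPSC with uniquely aligned pairs as library size, at -0.12, and for Mybph in EpiSC against iPSC with DESeq2. The sex difference of Car14 in NOD/ShiLtJ against that in WSB/EiJ, computed beside the planned comparisons, was -1.78 (adjusted p = 0.105 in edgeR), 0.78 with uniquely aligned pairs as library size, and past the threshold only without WSB/EiJ female clone 23 (-2.51, adjusted p = 0.0414 in edgeR). Depth limits Glyctk, Mybph and Adora1 outside EpiSC. There 3 counts were as much as 37.6 CPM, in male 129S1/SvImJ iPSC clone 17 in ESC/LIF.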
